A study of Mus musculus with 12 samples.

Results

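The Hox genes of the mouse lumbar spinal cord are described here across astrocyte arrays of SOD1 G93A and control mice. Hox genes were taken as the probe sets whose platform annotation gives a single symbol made of Hoxa, Hoxb, Hoxc or Hoxd and a number, and each gene was read from its brightest probe set. This gave 33 genes, from 48 probe sets, among 18194 genes with a single-symbol probe set on the array. The mouse has 39 Hox genes in the RefSeq gene table, and those beyond the 33 were not analysed here as single genes. Of the 33 genes, 22 passed the filter on low signal and were tested for a difference between groups. The filter asked for a signal above the median of its own array on at least 3 arrays. The other 11, Hoxa2, Hoxa3, Hoxa4, Hoxa13, Hoxb7, Hoxb13, Hoxc13, Hoxd1, Hoxd11, Hoxd12 and Hoxd13, have values but no test.

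Hox genes encode homeodomain transcription factors and lie in 4 clusters, Hoxa on chromosome 6, Hoxb on chromosome 11, Hoxc on chromosome 15 and Hoxd on chromosome 2. Genes with the same number in different clusters are paralogs, and their order along a cluster follows the order of their expression domains from hindbrain to tail. Low numbers mark the hindbrain and neck, middle numbers the brachial and thoracic cord, numbers around 10 the lumbar cord, and the highest numbers the sacral cord, tail and distal limbs. In the cord they are known above all for setting the identity of motor neuron pools, and regional astrocytes also keep a positional Hox expression.

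The arrays hold amplified RNA of astrocytes cut by laser capture microdissection from frozen lumbar spinal cord sections of male mice. The study itself describes the captured material as mixed cells in which astrocytes are a significant part. It reports that capture removed oligodendrocyte contamination, and that microglial and neuronal markers remained. The SOD1 G93A mice were transgenic for human SOD1 in the G93A form, a cause of amyotrophic lateral sclerosis (ALS), and came from the line B6SJL-Tg(SOD1 G93A)1Gur/J after repeated backcrossing to C57Bl/6 J Ola/Hsd. Their controls were non-transgenic (NTg) littermates. Mice were taken at 90 days, the symptomatic stage of the transgenic mice, and at 120 days, their late stage. Each of these 4 groups has 3 mice, with 1 array per mouse, so 12 arrays in all. The labels give 1500 captured astrocytes per mouse, and the study's methods give this number as a minimum. The sample labels name toluidine blue as the stain, whereas the study's methods describe ALDH1L1 staining, so which cells were chosen by marker is not settled. Values below are log2(signal + 7), quantile normalized over all 12 arrays, and fold changes of dim genes are understated on this scale.

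The deposited signals had been scaled to a trimmed mean of 100, and array medians ran from 24.9 to 30.4 in the NTg mice and 27.8 to 29.8 in the SOD1 G93A mice at 90 days. They ran from 27.9 to 37.1 in the NTg and from 38.8 to 55.2 in the SOD1 G93A mice at 120 days. Late-stage SOD1 G93A arrays also correlated less with each other (mean r of an array with its group 0.833 to 0.879) than arrays of the other groups (0.915 to 0.952). The 3′ to 5′ log2 signal ratio of the actin control was 4.73 ± 0.48 (SD, n = 3) in the NTg mice and 4.69 ± 0.49 in the SOD1 G93A mice at 90 days. At 120 days it was 5.52 ± 0.45 and 5.12 ± 0.27. The 2 ages are different mice, so age and any difference in handling between the ages cannot be told apart. The human transgene is not measured by this mouse array, so the genotype labels were not checked.

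Hox signals differed by paralog number, with the highest median ranks at numbers 8 and 9. As a measure that needs no normalization, each gene was ranked within its own array, with 100 as the brightest probe set. Paralog numbers 8 to 9 had a median percentile of 83.9 over their 6 genes, and 5 of these lay above the array median on all 12 arrays. Numbers 4 to 7 had a median of 61.1 (4 of 10 genes above on all arrays) and numbers 1 to 3 a median of 39.5 (1 of 7, Hoxb3). Numbers 10 to 11 had a median of 49.6 (1 of 5, Hoxc10) and numbers 12 to 13 a median of 11 (0 of 5). Over all 33 genes, 11 were above the array median on all 12 arrays and 6 on none. Probe sets differ in how strongly they bind their target, so a rank between genes is a rank of probe signals and not of transcript numbers.

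The highest ranks belonged to Hoxa9 (median percentile 96.5, range 93.3 to 98.7), Hoxc8 (95.3, range 93.4 to 97.2) and Hoxc10 (88.9, range 70.7 to 93.1). Hoxc8 acts in the brachial and thoracic cord, Hoxa9 in the thoracic to lumbar cord, and Hoxc10 is a marker of the lumbar cord. Hoxc9, a determinant of thoracic motor columns, had a median percentile of 85.3, and Hoxd9 79.8. Among more rostral genes, Hoxa5 stood at 81.7 with the narrowest spread (78.6 to 84.4), and Hoxc4 at 77.5. The caudal end was dim, with Hoxd11 at 16.6, Hoxd12 at 11, Hoxc13 at 8.57 and Hoxb13 at 4.59. Hoxd10, the other lumbar marker, had no steady rank, since it lay anywhere between 4.24 and 91.3. By cluster the median percentile was 77.5 for Hoxc (7 genes), 56.3 for Hoxb (9), 46.6 for Hoxa (9) and 39.1 for Hoxd (8). Hox8 genes, most Hox9 genes and Hoxc10 were bright, beside dim Hox12 and Hox13 genes. Rostral genes such as Hoxa5, Hoxc4 and Hoxb5 (76.3) were bright too, and numbers 10 to 11 were mixed. Hoxb9 was above the array median on 6 of 12 arrays, Hoxa10 on 9, Hoxd10 on 6, Hoxa11 on 5 and Hoxd11 on 0. Hoxc13 exceeded it on 1 array and Hoxd13 on 2. These ranks of probe signals do not place the samples along the cord. Of 17 homeobox and patterning genes of the forebrain and midbrain on the array, such as Otx2 and Emx2, 12 were above the array median on no array and 0 were on all.

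**Figure D1:**
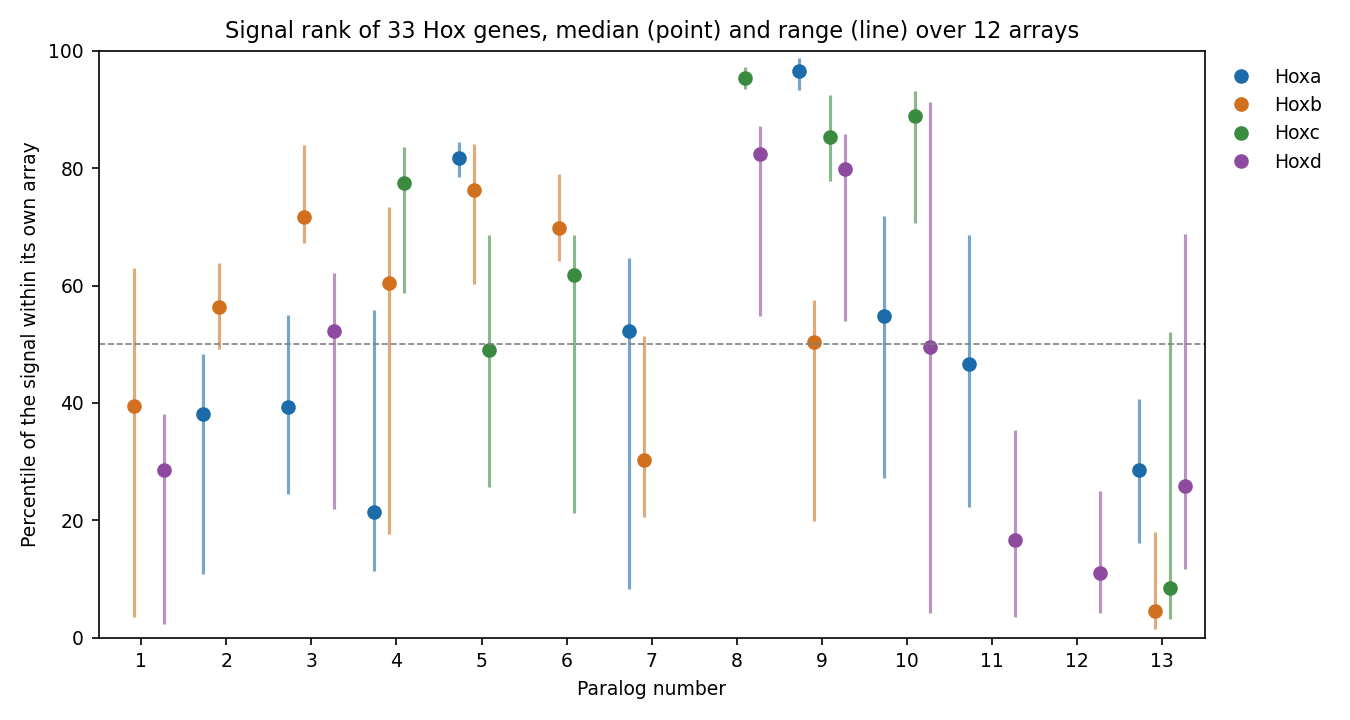
Percentile of each Hox gene's signal within its own array (vertical axis, 0 to 100) against paralog number (horizontal axis), coloured by cluster, with the median as a point and the range over 12 arrays as a line. The points peak at numbers 8 to 9 (median 83.9) and are lowest at 12 to 13 (median 11), and Hoxd10 spans 4.24 to 91.3.

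At 90 days no Hox gene differed between SOD1 G93A and NTg mice by the adjusted test, in which 0 of 22 genes had an adjusted p under 0.05. Over the whole array 0.107% of 26132 probe sets were called at this age, 0.0957% as higher and 0.0115% as lower. At an unadjusted p under 0.05 there were 2 Hox genes, Hoxb4 and Hoxb1, where 4.50% of all probe sets passed. The median log2 fold change was -0.07 over all 33 genes and -0.00 over all probe sets tested. Of the 22 tested, 15 had a lower and 7 a higher mean in SOD1 G93A mice.

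Hoxb4, a gene of the hindbrain and cervical cord, had log2 signals of 6.03, 5.78 and 5.33 in the 3 NTg mice and 3.99, 3.70 and 5.96 in the 3 SOD1 G93A mice at 90 days. A pair of SOD1 G93A mice lay far below the controls and the other among them, so the groups overlapped. Its log2 difference was -1.16 (standard error, SE, 0.49, adjusted p = 1). It was the sole member past the study's rule of a 2-fold change with p of at most 0.05, a rule that 0.612% of probe sets met in that direction and 0.884% in the other. At 120 days Hoxb4 was at 5.89, 5.91 and 6.30 in the NTg mice and 5.61, 6.03 and 6.72 in SOD1 G93A mice, with overlapping groups. Its other probe set was too dim to be tested.

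Hoxb1, which patterns the hindbrain, was dim, at 4.20, 3.02 and 3.86 in the NTg mice and 5.33, 3.98 and 4.61 in the SOD1 G93A mice at 90 days. The groups overlapped, with a log2 difference of 0.94 (SE 0.41, adjusted p = 1). Hoxb3 was the 1 gene whose SOD1 G93A values all lay below the NTg values at 90 days, where 5.56% of all probe sets did so, and Hoxc10 the 1 gene with all values above, narrowly, where 5.75% did. Hoxc8 was at 9.83, 9.49 and 9.95 in NTg controls and 9.68, 8.86 and 9.42 in transgenic mice, which overlapped, with a log2 difference of -0.44 (SE 0.26, adjusted p = 1). With 3 mice per group these intervals were wide. The 95% interval of Hoxc8 ran from -1.01 to 0.13 and that of Hoxb4 from -2.22 to -0.11.

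At 120 days 3 Hox genes, Hoxa7, Hoxa9 and Hoxd9, were lower in SOD1 G93A than in NTg mice and 0 were higher by the adjusted test. Of all probe sets tested, 5.76% were called lower and 4.74% higher, 10.5% in either direction, so that 3 of 22 Hox genes is close to the share of the array as a whole. At an unadjusted p under 0.05 there were 5 Hox genes, where 28.5% of probe sets passed. By the 2-fold rule the same 3 genes were lower and 0 higher, where 8.95% and 6.04% of probe sets were. The median log2 fold change was -0.35 over all 33 Hox genes and -0.39 over the 22 tested, beside -0.07 over all probe sets tested. With the values as deposited, the Hox median was -0.03 and that of all probe sets 0.07. Leaving out 1 array moved the Hox median to between -0.52 (without SOD1 G93A mouse 2) and -0.17 (without NTg mouse 2), and it was -0.19 without SOD1 G93A mouse 3. Of the 22 tested, 14 had a lower and 8 a higher mean in SOD1 G93A mice. The material of each mouse was pooled from many cells, so fewer Hox-expressing cells and less RNA per cell cannot be told apart.

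Hoxa9 was the brightest of the 3. Its log2 signals were 10.15, 10.89 and 10.33 in the NTg mice and 9.13, 9.67 and 8.83 in the SOD1 G93A mice at 120 days. Every late-stage SOD1 G93A mouse was below every NTg mouse, and the log2 difference was -1.25 (SE 0.31, adjusted p = 0.0239), a 2.37-fold difference. At 90 days the values were 9.92, 9.74 and 9.06 in the NTg mice and 9.49, 9.52 and 9.65 in SOD1 G93A mice, with a log2 difference of -0.02 (SE 0.31). The late-stage SOD1 G93A values thus overlapped those of the 90-day mice, and it was the late-stage NTg mice that lay above all other arrays. A dimmer probe set of Hoxa9 did not show the difference, with values of 6.68, 5.99 and 6.47 in the NTg mice and 6.06, 6.59 and 7.75 in the SOD1 G93A mice at 120 days. Its log2 difference was 0.42 (adjusted p = 0.49), and the mean of both probe sets gave -0.41 (adjusted p = 0.242).

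Hoxd9, a paralog of Hoxa9 in the Hoxd cluster, had log2 signals of 7.33, 7.76 and 7.73 in the NTg mice and 7.08, 6.01 and 5.53 in the SOD1 G93A mice at 120 days. The groups did not overlap, but the highest SOD1 G93A mouse lay close to the lowest control. The log2 difference was -1.40 (SE 0.36, adjusted p = 0.0276), a 2.63-fold difference. At 90 days Hoxd9 was at 7.42, 7.72 and 7.0 in the NTg mice and 6.98, 7.43 and 7.07 in SOD1 G93A mice, with a log2 difference of -0.22 (SE 0.36). Hoxd9 has 1 probe set on the array.

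Hoxa7, a neighbour of Hoxa9 in the Hoxa cluster that acts in the thoracic region, had log2 signals of 3.57, 5.51 and 5.16 in the NTg mice and 3.67, 3.27 and 3.21 in the SOD1 G93A mice at 120 days. The groups overlapped, because 1 NTg mouse was as low as the SOD1 G93A mice. The log2 difference was -1.36 (SE 0.41, adjusted p = 0.0493). The deposited signals were 7.6, 4.1 and 5.3 in the SOD1 G93A mice, near or below the offset of 7, and 6.2, 32.9 and 30.0 in the NTg mice. At 90 days all 6 mice were between 5.39 and 6.16.

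These calls depended on single mice. Without NTg mouse 2 at 120 days the adjusted p was 0.113 for Hoxa9, 0.106 for Hoxd9 and 0.2 for Hoxa7. Without NTg mouse 3 it was 0.0636, 0.0892 and 0.163, and without SOD1 G93A mouse 3 it was 0.0663, 0.0805 and 0.113. None of the 3 genes was called in these fits, and without SOD1 G93A mouse 2 Hoxd9 (adjusted p = 0.0573) and Hoxa7 (adjusted p = 0.0859) were lost too. Hoxa7 was called in 5 of 23 alternatives in all. Without SOD1 G93A mouse 1, 4 Hox genes were called, the additional one being Hoxc10 (adjusted p = 0.0091). When only the 2 late-stage groups were fitted, 0 Hox genes were called and Hoxa9 had an adjusted p of 0.0784.

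The sequences before the starts of these 3 genes are shown because the genes were called lower at 120 days. None of the arrays measured the promoters themselves. The 3 genes did not move alike with age in NTg mice, where Hoxa9 had 0.88, Hoxd9 0.22 and Hoxa7 -1.17. Each run holds the 250 bases before the start of the gene in RefSeq, build GRCm38.p6, 5′ to 3′ on the strand of the gene, with CpG dinucleotides in capitals.
Hoxa9, chr6:52227371-52227620, minus strand: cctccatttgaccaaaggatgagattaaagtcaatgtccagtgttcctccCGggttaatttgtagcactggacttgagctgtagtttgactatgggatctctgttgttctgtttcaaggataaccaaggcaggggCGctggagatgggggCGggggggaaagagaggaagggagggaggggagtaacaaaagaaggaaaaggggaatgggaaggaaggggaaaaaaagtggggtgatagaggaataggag
Hoxd9, chr2:74697513-74697762, plus strand: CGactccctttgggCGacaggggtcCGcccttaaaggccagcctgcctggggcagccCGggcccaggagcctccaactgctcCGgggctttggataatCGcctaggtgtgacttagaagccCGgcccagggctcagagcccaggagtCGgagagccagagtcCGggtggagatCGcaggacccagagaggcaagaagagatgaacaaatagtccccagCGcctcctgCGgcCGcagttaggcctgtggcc
Hoxa7, chr6:52218574-52218823, minus strand: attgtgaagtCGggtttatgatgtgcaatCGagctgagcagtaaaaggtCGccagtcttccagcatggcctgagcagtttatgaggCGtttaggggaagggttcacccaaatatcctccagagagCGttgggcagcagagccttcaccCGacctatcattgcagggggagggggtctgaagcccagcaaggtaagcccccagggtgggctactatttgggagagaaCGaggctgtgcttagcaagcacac
Their GC content was 49.6% for Hoxa9, 65.2% for Hoxd9 and 54.8% for Hoxa7, where the median of 32841 mouse promoters was 52.4%. They held 3, 13 and 7 CpG dinucleotides, where the median of all promoters was 6. On both strands, none of the 3 held the Hox and Pbx composite TGATTNAT, the Meis and Pknox site TGACAG, the homeodomain core TAATTA or TATAAA, the core of the TATA box. These letters were in 2.83%, 15.9%, 4.84% and 12.4% of all promoters.

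The 4 genes of paralog number 9 went different ways at 120 days, which is a description chosen after their values were seen. Beside the lower Hoxa9 and Hoxd9, Hoxc9 was at 7.04, 7.15 and 7.37 in the NTg mice and 7.74, 7.85 and 8.35 in SOD1 G93A mice. All SOD1 G93A values of Hoxc9 were above the controls, and its log2 difference of 0.79 (SE 0.34) did not pass the adjusted test (adjusted p = 0.143). Hoxb9 was at 5.48, 3.85 and 4.88 in the NTg mice and 5.58, 5.52 and 5.68 in SOD1 G93A mice, with a log2 difference of 0.86 (SE 0.44, adjusted p = 0.223). Hoxb9 and Hoxc9 were the 2 Hox genes with all SOD1 G93A values above the controls, where 14.0% of all probe sets were. Whether the fold changes of the paralogs differed was not tested.

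Hoxb3, of the hindbrain, was at 7.57, 7.10 and 6.82 in the NTg mice and 6.56, 6.31 and 6.65 in the SOD1 G93A mice at 120 days. The groups did not overlap, and its log2 difference was -0.66 (SE 0.27, adjusted p = 0.124). At 90 days it was at 7.14, 6.49 and 7.10 in the NTg mice and 6.44, 6.42 and 6.43 in SOD1 G93A mice, with a log2 difference of -0.48 (SE 0.27, adjusted p = 1). A dimmer Hoxb3 probe set had 0.39 at 90 days and 0.03 at 120 days, so its probe sets disagreed. Hoxd3 and Hoxc5 also had every SOD1 G93A value below the controls at 120 days, with log2 differences of -0.93 (adjusted p = 0.197) and -0.71 (adjusted p = 0.214). With Hoxa9, Hoxd9 and Hoxb3 this made 5 of 22 genes without overlap in that direction, where 18.5% of all probe sets were.

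By cluster, the 4 tested Hoxd genes, Hoxd3, Hoxd8, Hoxd9 and Hoxd10, all had lower means in SOD1 G93A mice at 120 days, from -2.24 to -0.59. A dimmer Hoxd8 probe set had 0.26, against -0.59 for the brightest, and the 3 probe sets of Hoxc6 had -0.60, -1.24 and 0.81. The 5 tested Hoxa genes ran from -1.36 to 0.13, with 4 lower. The 6 tested Hoxc genes ran from -0.85 to 0.79, with 4 lower. The 7 tested Hoxb genes ran from -0.66 to 0.86, and 5 of them had higher means, Hoxb5 (0.36), Hoxb2 (0.21), Hoxb4 (0.09), Hoxb1 (0.41) and Hoxb9. Only Hoxa7, Hoxa9 and Hoxd9 passed the adjusted test in any of these. Over the 4 clusters 14 of 22 tested genes had lower means as reported, 13 with the values as deposited and 17 with median centring. The 11 dim genes without a test ran from -0.88 (Hoxb7) to 0.64 (Hoxd13). Hoxa5, the steadiest Hox gene, had a log2 difference of 0.13 with a 95% interval of -0.35 to 0.61, and Hoxc8 one of 0.20 with an interval of -0.37 to 0.76.

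**Figure D2:**
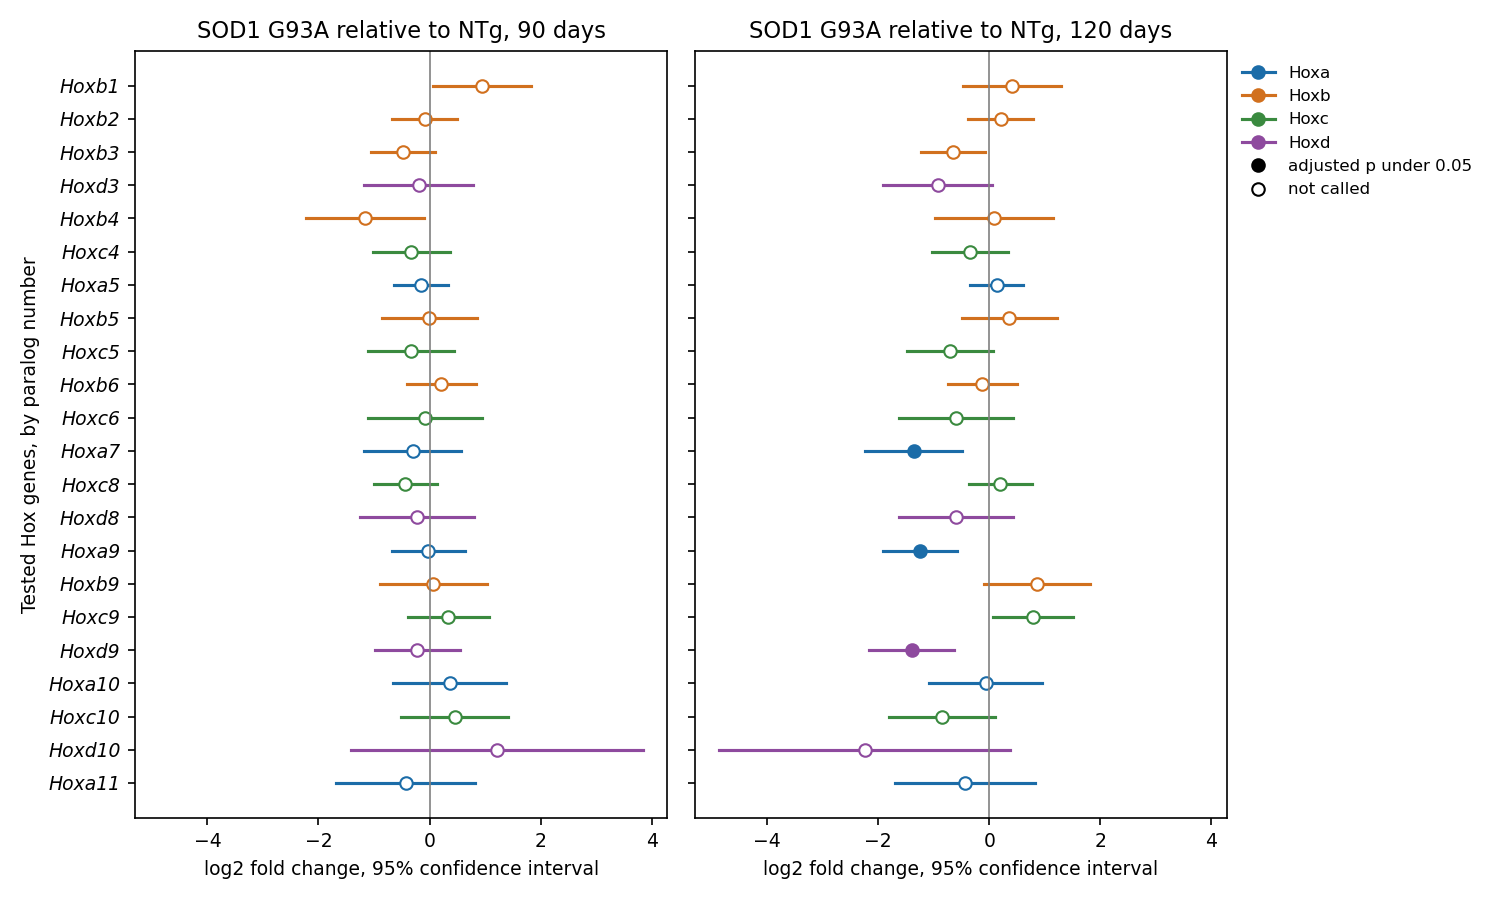
Log2 fold change of SOD1 G93A relative to NTg mice (horizontal axis) with its 95% confidence interval for the 22 tested Hox genes, ordered by paralog number and coloured by cluster, at 90 days (left) and 120 days (right). Filled points, Hoxa7, Hoxa9 and Hoxd9 at 120 days, mark an adjusted p under 0.05, and the interval of Hoxd10 is the widest at both ages.

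Hoxd10 and Hoxa11 varied most between mice of a group. Hoxd10, which specifies lumbar motor neurons, had an SD within groups of 1.90 on the log2 scale, beside a median of 0.55 and a next highest value of 0.87 (Hoxa11) over the 22 tested genes. Its log2 signals were 5.08, 5.93 and 3.12 in the NTg mice and 4.11, 8.14 and 5.53 in the SOD1 G93A mice at 90 days. At 120 days they were 8.48, 4.58 and 8.06 in the NTg mice and 6.83, 3.05 and 4.52 in SOD1 G93A mice. Its values spread widely within every group, and the groups overlapped at both ages. The log2 difference was 1.21 (SE 1.22) at 90 days and -2.24 (SE 1.22, adjusted p = 0.243) at 120 days. The 95% interval at 120 days ran from -4.87 to 0.38.

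Hoxc10 was at 8.09, 8.10 and 7.61 in the NTg mice and 8.32, 8.72 and 8.11 in the SOD1 G93A mice at 90 days. At 120 days it was at 8.34, 8.16 and 8.39 in the NTg mice and 8.78, 7.05 and 6.53 in SOD1 G93A mice. Late-stage SOD1 G93A mouse 1 had the highest value of its age, and mice 2 and 3 had the lowest values of all 12 arrays, with a log2 difference of -0.85 (SE 0.44, adjusted p = 0.229). Hoxc10 and Hoxd10 were chosen for this description after their values were seen, as was the comparison that follows.

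In each group the mouse with the highest Hoxd10 signal was compared with the mouse that had the highest signal of each other tested Hox gene. It was the same mouse in 4 of 4 groups for Hoxa11 and in 3 of 4 for Hoxc10 and Hoxd9. It was the same mouse in 2 of 4 for Hoxa10, Hoxb5, Hoxb9, Hoxc5, Hoxd3 and Hoxd8, and in 1 of 4 for Hoxa7, Hoxb2, Hoxb3, Hoxb6 and Hoxc4. The lowest mouse was the same in 3 of 4 groups for Hoxa10 and in 0 to 2 for the other genes. For Hoxc8, Hoxc9, Hoxa9, Hoxc6, Hoxa5, Hoxb4 and Hoxb1 the highest mouse was the same in 0 of 4. At 120 days SOD1 G93A mouse 1 had the highest Hoxd10, Hoxc10, Hoxd9, Hoxa10 and Hoxa11 of its group. In NTg mice at 120 days mouse 2 had the lowest Hoxd10, Hoxc10, Hoxa10 and Hoxa11. These are counts over 3 mice per group with no test. With so few mice, unrelated genes also share their highest or lowest mouse in some groups. Whether the caudal Hox genes varied together was therefore not settled by these counts. The position of each section along the lumbar cord is not given in the sources used here.

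**Figure D3:**
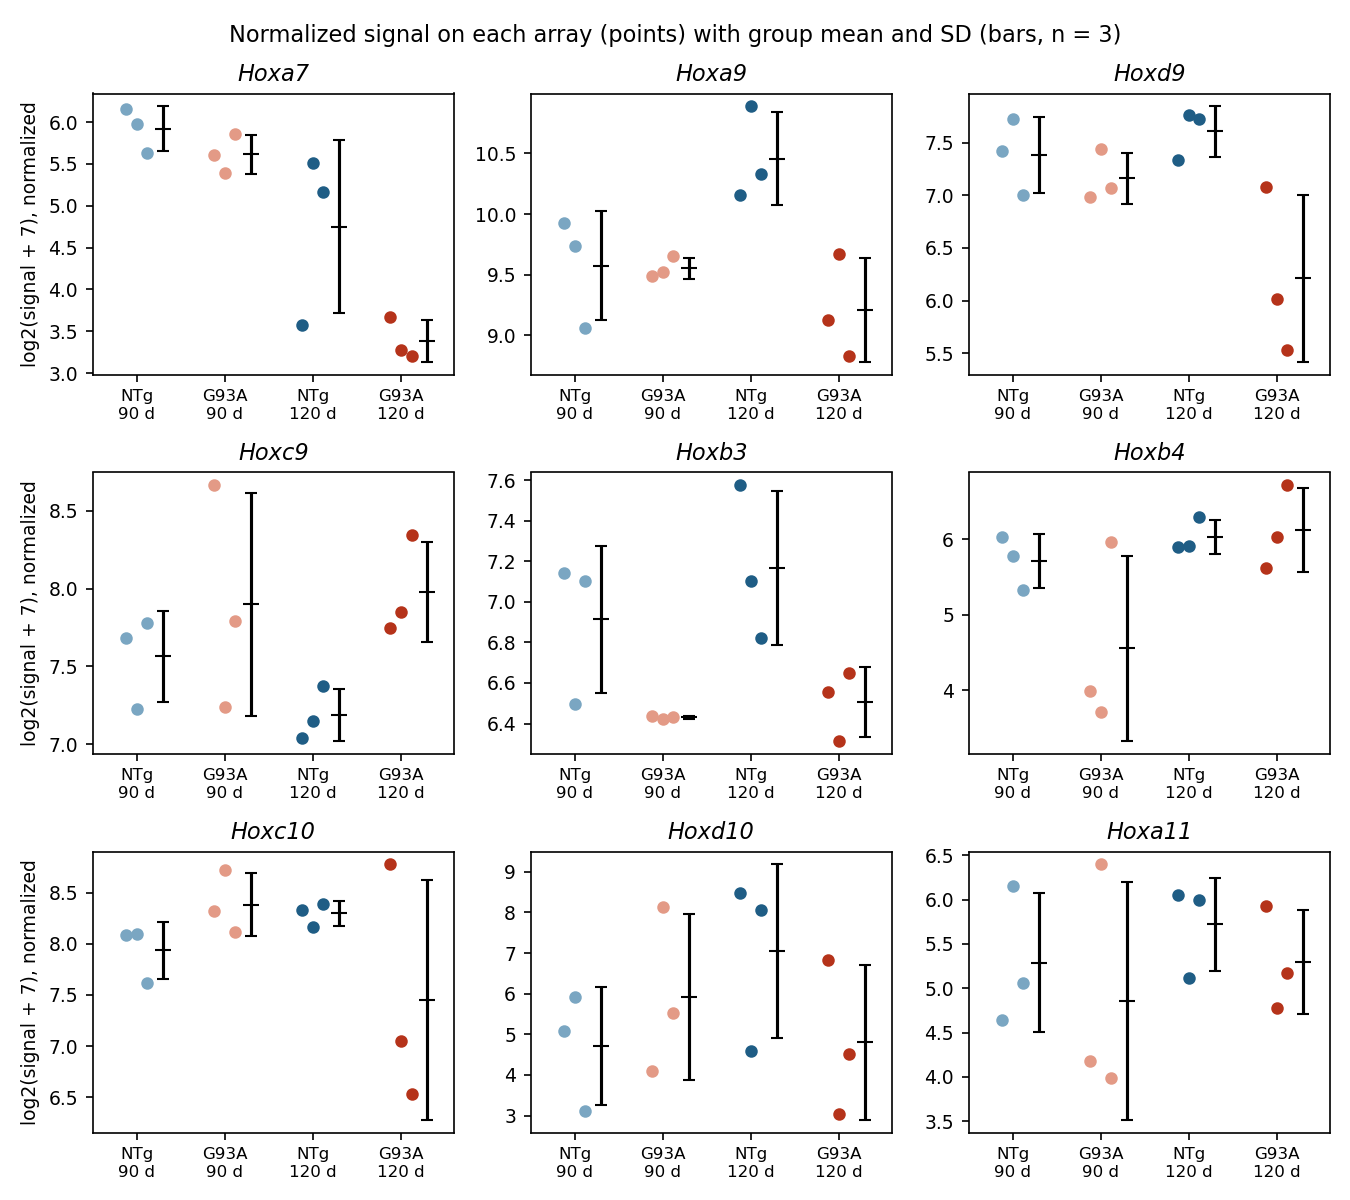
Normalized log2(signal + 7) of 9 Hox genes (vertical axes, not starting at 0) on each of the 3 arrays per group, with the group mean and SD beside the points. Hoxa9 and Hoxd9 separate the late-stage groups. Hoxd10 spreads widely in every group, and Hoxc10 does so only in late-stage SOD1 G93A mice (SD 1.18, beside 0.12 to 0.31 in the other groups).

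Between 90 and 120 days of age in SOD1 G93A mice, Hoxa7 fell by 2.23 on the log2 scale (SE 0.41, adjusted p = 0.00922). The 90-day SOD1 G93A mice were at 5.61, 5.39 and 5.85, all above the late-stage ones at 3.21 to 3.67. This was the 1 Hox gene called in that comparison, where 3.94% of probe sets were called lower and 3.06% higher. At an unadjusted p under 0.05 there were 4 Hox genes, Hoxa7, Hoxc5, Hoxb4 and Hoxd9, where 25.6% of probe sets passed. In NTg mice Hoxa7 had a log2 difference between the ages of -1.17 (SE 0.41, adjusted p = 0.131), with 6.16, 5.98 and 5.63 at 90 days. The ages did not overlap in either genotype. Hoxc5 had -1.19 (adjusted p = 0.0622), Hoxd9 -0.95 (adjusted p = 0.119) and Hoxb4 1.57 (adjusted p = 0.0688) in SOD1 G93A mice. By cluster, 7 of 7 tested Hoxb genes had a higher mean at 120 than at 90 days in these mice, and 4 of 4 Hoxd, 5 of 6 Hoxc and 3 of 5 Hoxa genes a lower one. In NTg mice 4 of 7 Hoxb genes were higher, and 1 of 4 Hoxd, 5 of 6 Hoxc and 2 of 5 Hoxa genes lower. The counts in SOD1 G93A mice depended on the scaling and were not tested. Over all clusters 12 of 22 tested genes were lower as reported and 11 with the values as deposited. With median centring 18 of 22 were lower, so the 7 Hoxb genes were not all higher.

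In NTg mice no Hox gene was called between the ages, where 3.62% of all probe sets were (1.14% higher and 2.48% lower), and 5 Hox genes had an unadjusted p under 0.05, where 19.9% did. They were Hoxb1, Hoxa7, Hoxa9, Hoxc8 and Hoxc5. Hoxa9 had a log2 difference of 0.88 (SE 0.31, adjusted p = 0.132) and Hoxc8 one of -0.73 (SE 0.26, adjusted p = 0.144). Hoxb1 had 1.33 (SE 0.41, adjusted p = 0.093). The median over all 33 genes was 0.18 in the NTg and -0.06 in SOD1 G93A mice, beside 0.02 and -0.08 over all probe sets tested. The median of the SOD1 G93A mice had no settled direction, since it was 0.26 with the values as deposited (all probe sets 0.09) and -0.28 with median centring (all probe sets -0.45). That of the NTg mice was 0.03 without 90-day mouse 3, 0.05 without 90-day mouse 2 and 0.09 without 120-day mouse 1.

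The difference between the genotype contrasts of the 2 ages was tested itself. It was called for 0 Hox genes and for 0 of all 26132 probe sets (0%), and 2 Hox genes had an unadjusted p under 0.05, where 10.6% of probe sets did. These were Hoxa9, with a difference of -1.22 (SE 0.43, adjusted p = 0.38), and Hoxd9, with -1.18 (SE 0.51, adjusted p = 0.439). Hoxc10 had -1.29 (adjusted p = 0.484), Hoxd10 -3.46 (adjusted p = 0.491) and Hoxb4 1.25 (adjusted p = 0.524). So the calls at 120 days and their lack at 90 days do not show that these genes responded differently at the 2 ages.

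Hox proteins bind DNA with TALE homeodomain cofactors, and 7 of the 9 genes of that list (Pbx, Meis and Pknox families) were tested. None was called at either age, with medians of 0.05 at 90 days and -0.07 at 120 days. Of all probe sets 0.107% were called at 90 days and 10.5% at 120 days. Meis1 had a log2 difference of 0.91 (adjusted p = 0.0826) and Meis2 one of -0.45 (adjusted p = 0.335) at 120 days. All but Pbx4, Meis3 and Pknox2 of those on the array were above the array median on all 12 arrays.

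Polycomb proteins keep Hox genes silent where they are not used, and Trithorax proteins and H3K27 demethylases keep them active. Of 24 tested Polycomb genes 0 were called at either age, where 0.107% of all probe sets were at 90 days and 10.5% at 120 days. At 120 days their median was -0.15, and 3 had an unadjusted p under 0.05, where 28.5% of all probe sets did. The 3 genes were Phc1 (0.84, adjusted p = 0.118), Phf19 (0.88, adjusted p = 0.13) and Pcgf6 (-0.54, adjusted p = 0.147). Cbx7, which reads the H3K27 mark, had -0.48 (adjusted p = 0.282). The Trithorax and demethylase list of 14 genes also held Ctcf, which belongs to neither class. Of these 14 genes 0 were called between the genotypes at either age. At 120 days 5 had an unadjusted p under 0.05, where 28.5% of all probe sets did. Setd1a had 1.37 (adjusted p = 0.0516), Rbbp5 had -0.86 (adjusted p = 0.0842), and the demethylases Kdm6a and Kdm6b had 0.83 (adjusted p = 0.0564) and 0.86 (adjusted p = 0.0799).

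Retinoic acid and Cdx factors set Hox domains in the embryo. Of 18 genes of that list 17 were on the array and 9 were tested, and Cdx1, Cdx2 and Cdx4 were above the array median on no array. Rarg, a retinoic acid receptor, had a higher level at 120 days in the transgenic mice than in their controls (log2 fold change 1.88, SE 0.44, adjusted p = 0.0192), and 0 were called at 90 days. Rarg was the 1 gene of the 9 called at 120 days, where 10.5% of all probe sets were. Between the ages Rarg had 0.33 in SOD1 G93A mice (adjusted p = 0.669) and -0.85 in NTg mice (adjusted p = 0.305). Between the genotypes at 120 days Cyp26b1, which degrades retinoic acid, had 1.35 (adjusted p = 0.252) and the receptor Rxrg 0.56 (adjusted p = 0.31). With age Rxrg was called higher in SOD1 G93A mice (1.28, adjusted p = 0.0444), where 3.06% of all probe sets were. In NTg mice Rxrg had 0.01 (adjusted p = 0.99). Rxrg was the 1 gene of this list called between the ages. Of the non-coding RNAs of the clusters 2 were tested. Between the genotypes at 120 days Hoxb5os had 0.75 (adjusted p = 0.0555) and Hoxd3os1 -0.74 (adjusted p = 0.14), and neither was called. Between the ages Hoxb5os was called lower in NTg mice (-1.11, SE 0.23, adjusted p = 0.0242), where 2.48% of all probe sets were. In SOD1 G93A mice Hoxb5os had -0.27 (adjusted p = 0.483) between the ages.

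Markers of other cell types moved with the late-stage contrast. Of all probe sets tested, 5.76% were called lower and 4.74% higher at 120 days. Of 12 neuronal markers tested, 6 were lower and 0 higher in SOD1 G93A mice at 120 days (median log2 fold change -1.14), among them Nefm (-1.63, adjusted p = 0.0126), Nefh (-1.28, adjusted p = 0.018) and Rbfox3 (-1.14, adjusted p = 0.0273). The mean log2 signal of that list was 10.36 to 10.69 in the NTg mice and 9.02 to 9.65 in the SOD1 G93A mice at 120 days, and 9.93 to 10.26 and 9.58 to 10.03 at 90 days. Of 6 motor neuron markers tested, Chodl was lower (-2.78, adjusted p = 0.0139), and Prph (-2.10, adjusted p = 0.0768), Slc18a3 (-1.26) and Chat (-0.73) did not pass. The list of 7 had a mean log2 signal of 5.34 to 6.45 in the NTg mice and 4.47 to 5.14 in the SOD1 G93A mice at 120 days. At 90 days it was 6.13 to 7.31 in the NTg and 5.77 to 6.02 in the SOD1 G93A mice. All 12 neuronal markers were above the array median on all 12 arrays, so neuronal RNA was present in every sample. Hoxa9 and Hoxd9 were lower in the same arrays, and the part of neuronal RNA in these differences was not tested.

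Of 8 microglial markers tested, 6 were higher at 120 days, C1qa by 2.80 (adjusted p = 8.52e-05), and 1, C1qa, at 90 days. Of all probe sets 4.74% were called higher at 120 days and 0.0957% at 90 days. The microglial list had a mean log2 signal of 6.38 to 6.50 in the NTg mice and 8.05 to 8.13 in the SOD1 G93A mice at 120 days. At 90 days it was 7.13 to 7.29 in the NTg and 7.99 to 8.27 in the SOD1 G93A mice. Between the ages 4 of the 8 markers were called lower in NTg mice, where 2.48% of all probe sets were. In SOD1 G93A mice 1 was called higher and 0 lower. Of 12 astrocyte markers 3 were called higher at 120 days, where 4.74% of all probe sets were. They were Gfap (4.86, adjusted p = 9.03e-05), Sox9 (1.68) and Aldh1l1 (1.30), and 0 were called lower. Gjb6 (-0.86), Mlc1 (-0.63), S100b (-0.60), Fgfr3 (-0.59) and Aldoc (-0.37) had lower means without a call. Aqp4, Slc1a2, Slc1a3 and Gja1 had higher means without a call. Between the ages Gfap had -3.57 in NTg mice (adjusted p = 0.00283) and -0.45 in SOD1 G93A mice (adjusted p = 0.566). At 120 days the astrocyte list ran from 8.91 to 9.23 in the NTg and from 8.87 to 10.14 in SOD1 G93A mice. So 1 SOD1 G93A mouse lay below all controls. At 90 days the list ran from 9.64 to 9.94 in the NTg and from 9.90 to 10.26 in SOD1 G93A mice. Of 7 oligodendrocyte and 5 endothelial markers tested 0 were called at either age, and the oligodendrocyte list was bright throughout (10.45 to 11.33). The part of these cell types in the Hox differences was not tested.

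**Figure D4:**
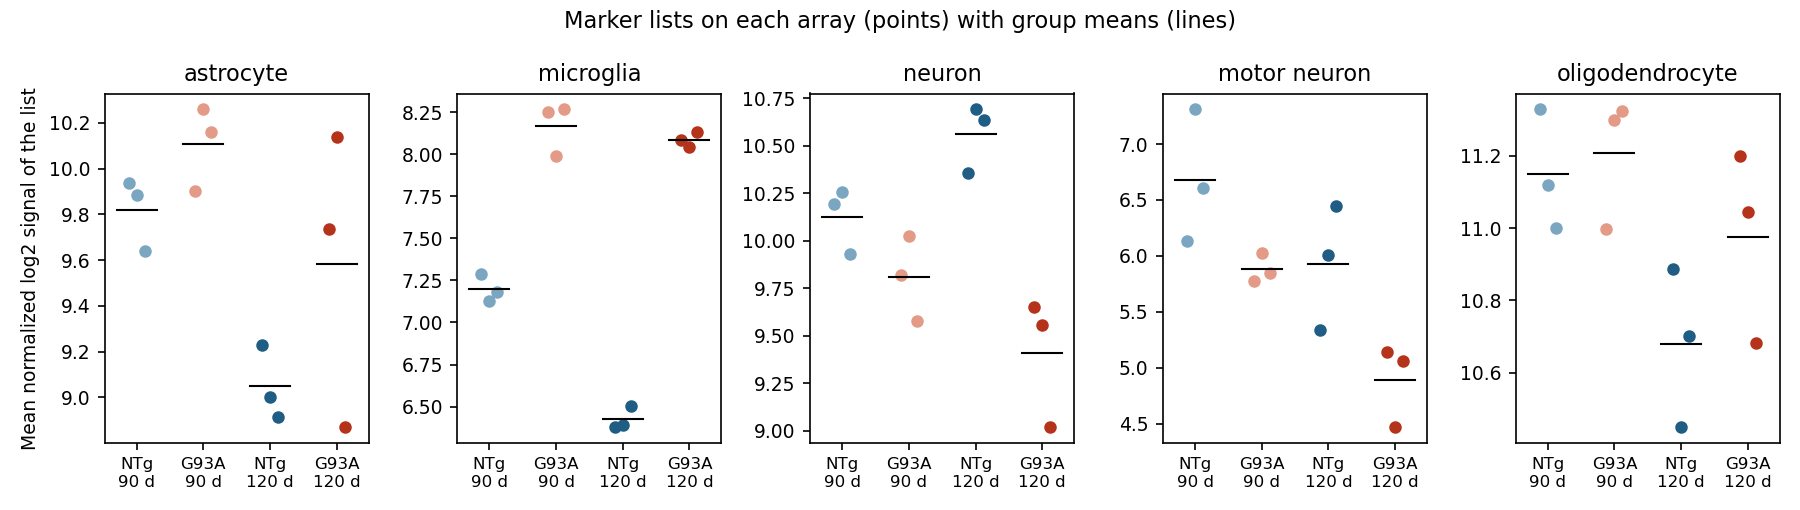
Mean normalized log2 signal of the markers of 5 cell types (vertical axes, not starting at 0) on each array, with the group mean as a line. At 120 days the neuron and motor neuron lists were lower and the microglia list higher in every SOD1 G93A mouse than in any NTg mouse.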

How the data were processed

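Laser-captured astrocytes of 12 male mice were measured on Affymetrix whole-genome mouse arrays. The authors deposited a table of signal intensities on a linear scale for 45101 probe sets, made with MAS5 (version not given) and scaled to a trimmed mean of 100. The study's methods describe the PLIER summary for its own differential test, which these values are not. Background and present calls were not used here, so dim signals carry little precision, and precision is set by having 3 arrays per group.

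From these intensities log2(signal + 7) was taken, 7 being the 20th percentile of all values, and all 12 arrays were quantile normalized together so that the 4 groups share a scale. Of the probe sets 64 controls were left out, and a probe set was tested if it exceeded its array's median on 3 or more arrays, which 26132 did. Symbols came from the platform annotation (34958 probe sets with 1 symbol, 932 with several, 9211 with none). With limma 3.58.1 under R 4.3.3, a model of 4 group means was fitted, which left 8 residual degrees of freedom. P-values were corrected by the Benjamini-Hochberg method over all tested probe sets, with a threshold of 0.05. Genes are said to rise, fall or be called where the adjusted p was under 0.05. The steps were tested on simulated data.

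Hox genes with full values are those called, those past the study's 2-fold rule, and the 4 of smallest p at each age. Hoxb9, Hoxc9, Hoxc10 and Hoxd10 met none of these rules and were added after their values were seen. Lists of cofactors, chromatin regulators and cell type markers are given by counts, medians and up to 4 members, with more for the astrocyte list. The Hox genes and all lists were chosen with earlier results of these data known. Alternatives tried were the values as deposited, normalization within each age, median centring, offsets of 1 and 34.4, no filter, a filter at the 75th percentile, a fit of 2 groups alone, a block by replicate number, weighting of arrays, another prior (trended and robust), the mean of all probe sets of a gene, and leaving out each array. Promoter sequences came from RefSeq (GRCm38.p6). Plots were made in python 3.11.15 (matplotlib 3.10.9).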

Additional observations from a re-analysis of the deposited data

How the results depend on the processing

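At 90 days 0 Hox genes were called under any of the 24 alternatives. At 120 days 3 were called in the reported fit, 1 without the filter, 0 when only the late-stage groups were fitted, and 0 to 4 when 1 array was left out (0 without late-stage NTg mouse 2 or 3 or SOD1 G93A mouse 3, 1 without SOD1 G93A mouse 2, and 4 without SOD1 G93A mouse 1). Hoxa9 was called in 19 of 24 alternatives (adjusted p 0.0072 to 0.242), Hoxd9 in 17 of 24 (0.0047 to 0.106) and Hoxa7 in 5 of 23 (0.00423 to 0.2). Hoxa7 between the ages in SOD1 G93A mice was called in 22 of 22. The count of Hox genes between the ages in SOD1 G93A mice was 1 as reported, 2 with the values as deposited, 4 with median centring, 0 with the filter at the 75th percentile, at which Hoxa7 was not tested, and 1 to 3 when 1 array was left out, 3 of them without late-stage SOD1 G93A mouse 1. In NTg mice it was 0 as reported, 1 with the 2 groups alone, 5 with array weights and 0 to 1 when 1 array was left out, 1 of them without late-stage SOD1 G93A mouse 3. The calls over the whole array of 26132 tested probe sets moved too, so these counts are not particular to Hox genes. Between the ages in SOD1 G93A mice 800 probe sets were higher and 1030 lower as reported. As deposited these were 1611 and 882, and with median centring 568 and 4480. In NTg mice 946 were called as reported, and 389 to 5943 over the alternatives that kept all arrays. The cause of these shifts was not tested.

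The replicate numbers were not taken to pair the mice. Same-numbered mice deviated from their group means with correlations of -0.267, 0.277 and -0.279 at 90 days and -0.0654, 0.0345 and -0.0102 at 120 days. Differently numbered mice ran from -0.359 to 0.455 at 90 days and from -0.047 to 0.058 at 120 days. With 3 mice per group these values do not settle whether mice were paired. With the replicate number as a block 1 Hox gene was called at 120 days and 1 between the ages in NTg mice.

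Directions reversed at 120 days for Hoxc8 (-0.014 as deposited, -0.40 with median centring) and Hoxb4 (-0.12 with median centring, -0.19 with array weights, -0.21 to 0.34 with 1 array left out). At 90 days, with 1 array left out, Hoxa9 ran from -0.28 to 0.15, Hoxb9 from -0.43 to 0.41 and Hoxc9 from -0.047 to 0.66. Median centring moved the median of all probe sets at 120 days from -0.07 to -0.33, and then 666 probe sets were higher and 2834 lower, beside 1239 and 1505 as reported and 1382 and 1046 as deposited. Over the alternatives the probe sets called at 90 days ranged from 1 to 148 (28 as reported) and at 120 days from 733 to 3561 (2744 as reported), between the ages in SOD1 G93A mice from 192 to 5048 (1830 as reported, 564 to 2182 with 1 array left out) and in NTg mice from 152 to 5943 (946 as reported, 152 to 1965 with 1 array left out). With 3 mice per group and dim signals at the offset, small differences of the dim Hox genes were not detectable.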

Other observations

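A probe set annotated to both Hoxb7 and Hoxb8, and so counted for neither, had log2 signals of 6.76, 6.75 and 6.54 in symptomatic and of 4.73, 6.02 and 5.13 in late-stage SOD1 G93A mice. With age in SOD1 G93A mice it fell by 1.39 on the log2 scale (adjusted p = 0.0421), and its difference between the genotypes at 120 days was -0.76 (adjusted p = 0.201). Of 2 probe sets annotated to both Hoxd3 and Hoxd4, 1 was tested, with a log2 fold change of 0.20 (adjusted p = 0.823) at 120 days.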
